A study of Mus musculus with 2 samples.

Results

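The cells described here were fetal germ cells that carried transcripts of Stra8, the gene whose product licenses entry into meiosis, together with high levels of Dppa5a, Rhox5, Rhox6 and Rhox9, genes of the pluripotent and early germ line state. They were 1000 of 18617 germ cells from mouse ovaries in mid-gestation (E15.5, counted in days of embryonic development), 703 of them in the library with a deletion of the glucocorticoid receptor (KO) and 297 in the wild-type library (WT). Membership was set by the measured values of these genes. Barcodes with at least 3000 unique molecular identifiers (UMIs, each counting 1 captured transcript) and under 10% mitochondrial UMIs were kept, and each cell was scaled to 10000 UMIs. Germ cells were those in which Dazl, Ddx4, Smc1b, Sycp1, Sycp3 and Stra8 summed to at least 20 on that scale. Of the 3015 germ cells with Stra8 at 5 or above, the 1000 with the highest sum of Dppa5a, Rhox5, Rhox6 and Rhox9 were taken, and they are called Dppa5a/Rhox-high cells below.

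Both groups carried the transgene Tg(Pou5f1-EGFP)2Mnn, whose fluorescence marks germ cells, and no embryo was treated with an agent. KO embryos were homozygous for a constitutive deletion of Nr3c1, the gene of the glucocorticoid receptor (GR). The allele was derived from Nr3c1tm1.1Jda, in which exon 3 is flanked by loxP sites, by crossing to mice with cre under the beta-actin promoter, so that every cell of the embryo and not only the germ line lost the exon, and homozygotes die at birth. The ovaries of 2 KO embryos were pooled into 1 library and those of 4 WT embryos into another, with sorted GFP-positive germ cells mixed with GFP-negative somatic cells at 60 to 40. With 1 library per group there is no replicate, no test between genotypes was possible, and genotype cannot be told apart from embryo pool, sort, capture or depth. Intervals in parentheses are 95% intervals that cover counting error only.

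In the mouse fetal ovary, primordial germ cells stop dividing and enter meiosis in response to retinoic acid and bone morphogenetic protein (BMP) signals from the surrounding tissue. Retinoic acid induces Stra8, which is needed for the last round of DNA replication before meiosis and for the meiotic gene programme, and the pluripotency genes of the primordial germ cell are shut down over the same period. Meiosis then proceeds through loading of axis proteins, formation of programmed DNA breaks, and assembly of the synaptonemal complex between homologous chromosomes. Dppa5a encodes an RNA-binding protein of pluripotent cells, and the Rhox genes are a cluster of homeobox genes on the X chromosome expressed in reproductive tissue.

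The promoters in RefSeq (GRCm38.p6) offer a view of the retinoic acid motif at genes of these cells. The core hexamer AGGTCA, which retinoic acid receptors and other nuclear receptors recognise, was searched on both strands from 250 bases before to 50 bases after each start site. Of the rule genes Stra8, Dppa5a, Rhox5, Rhox6 and Rhox9, Stra8 and Rhox5 had a promoter in the table, and the Stra8 promoter held the hexamer at 2 places. Among the 14 genes named below as most raised in the Dppa5a/Rhox-high cells, 8 had a promoter and 3 of these held it. The promoters of Phlda2, Rec8, Msx1, Tk1, Slc22a18 and Rhox5 held none. The windows shown are all the matches found, so Sox2, Alpl and Sct appear because their promoters held the hexamer. All windows are read 5′ to 3′ on the strand of the gene, with the hexamer or its reverse complement TGACCT in capitals. Distances are to the start site of the promoter set. In the gene annotation Stra8 begins at chr6:34920163, so both Stra8 windows lie inside the gene as annotated there.
Stra8, chr6:34920744-34920769, plus strand, 194 bases before the start: tggggtgaaaAGGTCAtcttgctcct
Stra8, chr6:34920900-34920925, plus strand, 38 bases before the start: ctggggtaccAGGTCAgttttttacc
Sox2, chr3:34649745-34649766, plus strand, 244 bases before the start: gcgccgTGACCTgttgctgaaa
Alpl, chr4:137766491-137766516, minus strand, 31 bases before an internal start: gagtaaggccAGGTCAcagccactga
Sct, chr7:141279232-141279257, minus strand, 114 bases before the start: tgggcggcccTGACCTtcctgcaatc
The hexamer was in 16.04% of all 27025 promoters and in 11.03% of the 5592 promoters of genes tested below. It was in 12.2% of 343 promoters of genes higher in the Dppa5a/Rhox-high cells and in 8.89% of 270 promoters of genes lower in them. The motif CNCCTCAG, bound by STRA8, was in 10.2% of promoters of tested genes, 9.62% of those of higher genes and 5.19% of those of lower genes. These matches describe letters in a window and no binding was measured.

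The Dppa5a/Rhox-high cells were more deeply sampled than the rest. Their median depth was 17538 UMIs and 4121 genes in KO and 26251 UMIs and 4960 genes in WT, against 11539 and 17027 UMIs in the other 10550 KO and 7067 WT germ cells. UMIs were summed over the cells of a library and expressed per 1000000 UMIs (CPM), so that these totals rested on 12473306 UMIs in KO and 7922276 in WT. The 2 libraries shared 75 barcodes, of which 2, both in KO, were among the 1000. Scrublet, which scores likely doublets, called 40 KO cells (5.69%) and 7 WT cells (2.36%), shares below the 11.0% and 4.70% among other germ cells.

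The score that ranked the cells was continuous, with no gap at its limit. The last cells inside stood at 10.06, 10.05 and 10.04 UMIs per 10000, and the first cells outside all stood at 10.03. The median was 14.5 in both libraries, and the highest cell stood at 35.9 in KO and 46.9 in WT. Dppa5a gave the greatest part, a median of 38.0% of the sum in KO cells and 31.8% in WT cells. Per 10000 UMIs, Dppa5a had a median of 5.76 in KO (lowest 0, highest 24.4) and of 4.96 in WT (0 to 12.8). Rhox5 had medians of 3.42 and 3.33, Rhox9 of 3.08 and 3.45, and Rhox6 of 2.19 and 2.84. Few cells lacked a UMI of any one of them. The most were 52 of 703 KO cells without Rhox5, whereas 1 of 297 WT cells was without Rhox9. Across cells of 1 library the 3 Rhox genes showed weak positive rank correlations, from 0.15 to 0.29 between Rhox5 and Rhox6, 0.27 to 0.34 between Rhox5 and Rhox9 and 0.16 to 0.35 between Rhox6 and Rhox9 for KO and WT, while Dppa5a and Rhox6 stood at −0.27 and −0.07. These cells share a library and were selected on the sum, which by itself ties its parts to each other.

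The level of the selecting genes is a description of the rule. Rhox5 stood at 408.5 CPM in KO and 415.8 in WT, against 19.0 and 12.9 in other germ cells, and Dppa5a at 588.7 and 517.0 against 101.0 and 76.0. Rhox9 stood at 337.2 and 384.4 CPM against 52.2 and 42.6, Rhox6 at 240.7 and 310.5 against 47.4 and 37.4, and Stra8 at 1556.4 and 1622.0 against 254.5 and 170.7. When the UMIs of each cell were split at random, with 1 part choosing the cells and the other part read, the excess was nearly as large. The log2 ratio over other germ cells was then 4.18 (4.09 to 4.28) in KO and 4.64 (4.53 to 4.76) in WT for Rhox5, and 2.33 (2.27 to 2.39) and 2.62 (2.54 to 2.69) for Dppa5a. Of the germ line genes in the rule, Sycp1 was lower than in other germ cells, at 976.3 and 833.3 CPM against 3022.4 and 2974.2.

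The name "premeiotic" was checked against meiotic genes, and transcripts of some of them were present. Genes that the rule did not use were taken for this, since Sycp1 and Sycp3 helped to choose the germ cells. A UMI of Hormad1, a protein of the chromosome axis, was found in 98.2% of KO and 97.6% of WT cells, and in 72.4% and 66.3% after each cell was thinned to 3000 UMIs. In the kept barcodes that were not germ cells the thinned shares of Hormad1 were 3.82% and 2.23% (median depth before thinning 7826.5 and 11884 UMIs). Dmc1, the recombinase of meiosis, had a UMI in 80.5% and 83.8% of the cells, or 31.6% and 17.5% when thinned, against 2.25% and 1.16% of thinned barcodes that were not germ cells. Among other germ cells the thinned shares were 79.3% and 74.4% for Hormad1 and 38.6% and 34.3% for Dmc1. Spo11, which makes the programmed breaks, was seldom captured, in 3.56% and 3.70% of thinned cells against 22.5% and 25.6% of other thinned germ cells. On the pluripotent side Dppa3 had a UMI in 63.7% of KO (60.0 to 67.3) and 77.4% of WT cells (72.3 to 82.1), against 8.64% and 10.6% of other germ cells and 0.173% and 0.466% of barcodes that were not germ cells. When thinned, the shares with Dppa3 were 21.6% and 29.6% against 2.22% and 2.12% of other germ cells. Nanog, a core pluripotency factor, had a UMI in 2 of 703 KO and 1 of 297 WT cells, shares whose intervals include those of barcodes that were not germ cells. Sox2 had a UMI in 6.54% of KO and 6.40% of WT thinned cells, against 0.474% and 0.382% of other thinned germ cells. When thinned, Kit had a UMI in 7.82% and 7.07% of cells against 2.33% and 3.20% of other germ cells. Pou5f1 was in 11.1% of KO (8.87 to 13.7) and 14.8% of WT cells (11.0 to 19.4) against 8.03% and 11.6%. Tfap2c was in 1.42% (0.684 to 2.60) and 0.673% (0.0817 to 2.41) against 0.237% and 0.170%. In WT the intervals of Pou5f1 and Tfap2c included the shares of other germ cells. Transcripts of Hormad1 and Dmc1 were therefore present, at thinned shares below those of other germ cells. Dppa3 and Sox2 were captured more often than in other germ cells, while Nanog was near absent at this depth. These shares do not settle whether the cells were before meiosis, and the cells are named here by the genes that chose them.

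Dppa5a/Rhox-high cells made up 6.25% of KO germ cells (5.81 to 6.71) and 4.03% of WT germ cells (3.60 to 4.51). The gap was already present at the step before, since 18.9% of KO (18.2 to 19.7) and 12.0% of WT germ cells (11.3 to 12.8) had Stra8 at 5 or above. Taken over that Stra8-positive pool, they were 33.0% of KO cells (31.0 to 35.0) and 33.6% of WT cells (30.5 to 36.8), with intervals that overlap almost entirely. Without the limit on Stra8, cells with an equally high Dppa5a and Rhox sum were 6.82% of KO and 4.39% of WT germ cells. Of these, 64 KO and 26 WT germ cells had Stra8 under 5. Most still held Stra8, with medians of 3.52 and 3.51 UMIs per 10000. Medians of Stra8 within the Dppa5a/Rhox-high cells were alike, at 15.1 and 15.7 UMIs per 10000. The gap between libraries was a little wider when Dppa5a alone made the score, at 6.58% and 3.53%. It has no replicate, and staging of 2 and 4 pooled embryos was not measured.

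Against other germ cells of the same library, 424 of 7137 genes were at least 2-fold higher in both libraries (5.94% of genes tested) and 337 were at least 2-fold lower in both (4.72%). A gene was tested when the mean of the CPM of both sides reached 10 in each library, and the genes of the rule were left out. Of the 424 higher genes, 160 were under 10 CPM in other germ cells of at least 1 library and so passed through their level in the Dppa5a/Rhox-high cells, and 150 of the 337 lower genes passed in the same way through other germ cells. Past 2-fold there were 852 genes in KO and 1101 in WT, and 0 genes went past 2-fold in opposite directions. The median log2 ratio over all tested genes was −0.03 in KO and −0.08 in WT. Because both sides come from the same libraries, the libraries repeat the comparison and do not replicate a genotype. Since every gene that varies with Dppa5a and Rhox transcripts is drawn along by the rule, these counts are a description of what accompanies those transcripts.

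**Figure D1:**
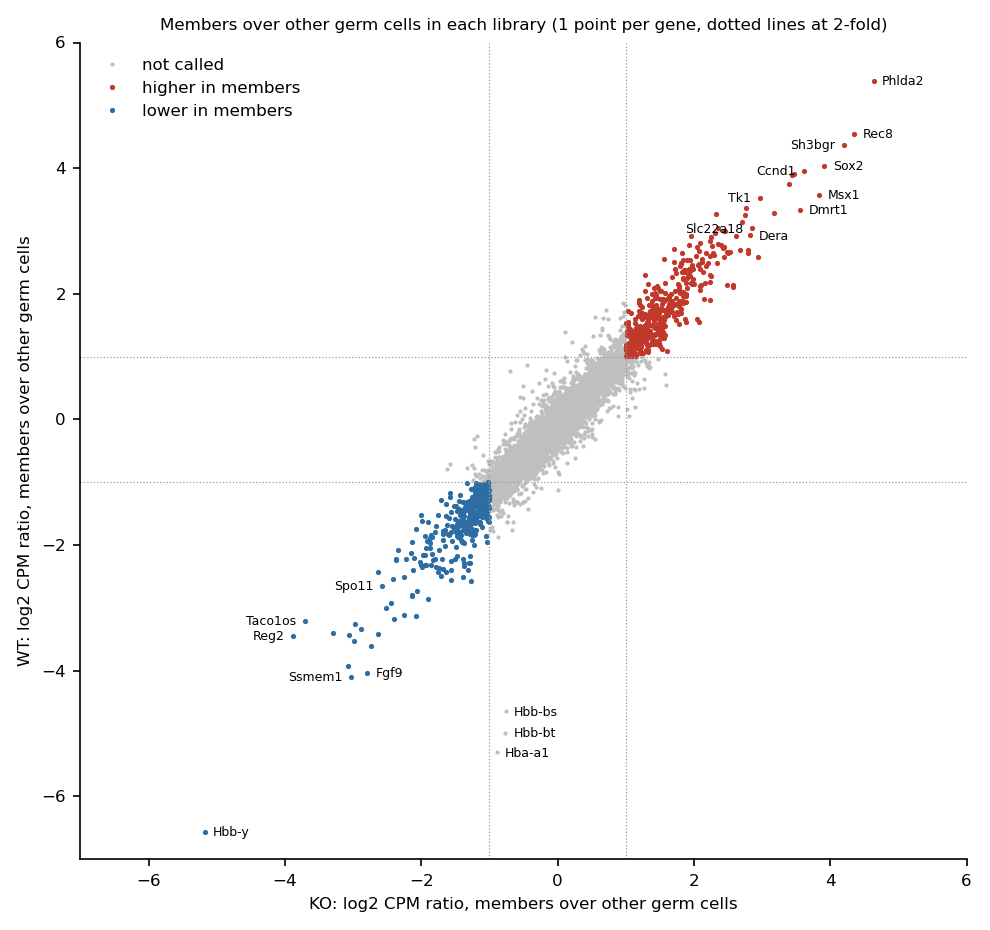
Each point is a gene, with the log2 ratio of CPM in Dppa5a/Rhox-high cells (members in the axis labels) over other germ cells in KO (horizontal) and in WT (vertical). Genes at least 2-fold apart in both libraries are coloured and lie along the diagonal, with Phlda2 and Rec8 at the upper end and Hbb-y at the lower end.

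Genes of the pluripotent and primordial germ cell state summed to more in the Dppa5a/Rhox-high cells, at 683 CPM in KO and 766 in WT over all 26 genes of the list, against 237 and 249 in other germ cells. In barcodes that were not germ cells the same sum was 901 and 813 CPM. A high sum alone therefore does not mark a pluripotent or germ cell state, and it is compared here among germ cells only. Of the 26 genes, 11 were tested, 8 were at least 2-fold higher in both libraries and 0 lower, with a median log2 ratio of 1.43 in KO and 1.69 in WT. The filter favoured this direction, since 6 of the 8 (Sox2, Dppa3, Dppa4, Utf1, Mybl2 and Kit) were under 10 CPM in other germ cells of at least 1 library. Sox2, a pluripotency transcription factor, stood at 24.4 CPM in KO and 21.3 in WT against 1.62 and 1.30 in other germ cells, log2 ratios of 3.91 (3.66 to 4.17) and 4.04 (3.72 to 4.36). Dppa3, which protects methylated DNA in the early embryo, stood at 105.7 and 131.9 CPM against 10.1 and 9.80, log2 ratios of 3.39 (3.28 to 3.504) and 3.75 (3.63 to 3.87). Dppa4, Utf1, Ifitm1, Ifitm3, Mybl2 and Kit, the receptor of germ cell survival signals, were the other genes past 2-fold, and those of Kit were the nearest to the limit in WT, at 1.12. Pou5f1, which drives the transgene used in the sort, stood at 48.9 and 57.6 CPM against 30.0 and 41.6 and stayed under 2-fold (0.70 and 0.47). Against the other Stra8-positive germ cells alone, with 15.0 and 15.8 CPM, Pou5f1 was past 2-fold, at 1.71 and 1.87. Sall4, Lin28a and Dnd1, regulators of the primordial germ cell, were under the filter of a mean of 10 CPM. Their levels were 15.2, 17.5 and 18.8 CPM in KO and 14.01, 16.03 and 15.7 in WT, against at most 1.87 CPM in other germ cells of either library. Klf4, also under the filter, went the other way, at 7.54 and 6.44 CPM against 11.9 and 13.1. The alkaline phosphatase Alpl, a classic stain of primordial germ cells that was not on the list, stood at 28.5 and 35.2 CPM against 2.56 and 2.35. Alpl too passed the filter through the Dppa5a/Rhox-high cells.

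Regulators of meiotic entry split. Of 10 genes, 9 were tested, 5 were at least 2-fold higher in both libraries and 0 lower. Of these 5, all but Zglp1 were under 10 CPM in other germ cells and passed the filter through the Dppa5a/Rhox-high cells. Rec8, a meiotic cohesin that is induced by retinoic acid, stood at 139.7 CPM in KO and 147.3 in WT against 6.84 and 6.30, log2 ratios of 4.35 (4.24 to 4.47) and 4.55 (4.42 to 4.68). Msx1, a homeobox gene downstream of BMP that promotes Stra8 expression, stood at 91.0 and 80.4 CPM against 6.38 and 6.72. Dmrt1, a regulator that acts on Stra8, was at 20.6 and 20.3 against 1.75 and 2.01. Zglp1, the BMP-induced oogenic determinant, had 73.4 and 79.3 CPM against 17.2 and 19.0, and Gata2 24.5 and 29.8 against 8.38 and 9.60. By contrast Meioc, which with Ythdc2 stabilises the meiotic programme, was level at 324 and 340 CPM against 321 and 329. Gm4969, the partner of STRA8 also named Meiosin, was level too, at 37.6 and 33.8 CPM against 40.8 and 35.4.

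Some targets of retinoic acid and BMP were higher. Of 16 genes, 7 were tested, 4 were at least 2-fold higher in both libraries and 0 lower, with a median log2 ratio of 1.27 in both libraries. Id3, an inhibitor of differentiation induced by BMP, stood at 703 CPM in KO and 714 in WT against 125 and 162 in other germ cells. Crabp1, which binds retinoic acid in the cytoplasm, stood at 90.2 and 86.2 CPM against 17.7 and 12.5, and Id2 and the inhibitory Smad7 were the other genes past 2-fold. Smad7 was under 10 CPM in other germ cells of at least 1 library and passed the filter through the Dppa5a/Rhox-high cells. Id1 was past 2-fold in KO only (446 CPM against 185, log2 1.27) and not in WT (436 against 308, log2 0.50), a difference that lay in the other germ cells and not in the Dppa5a/Rhox-high cells.

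Most DNA replication genes leaned upward by less than 2-fold. Of 32 genes, 31 were tested, 9 were at least 2-fold higher in both libraries, 0 lower, and the median log2 ratio was 0.72 in KO and 0.81 in WT, over ranges of −0.22 to 2.07 and −0.24 to 2.47, with 30 of the 31 above 0 in each library. Over all tested genes the median was −0.03 and −0.08. Tyms, which makes thymidylate, stood at 45.3 and 46.3 CPM against 10.8 and 8.34, and Mcm2, of the replicative helicase, at 34.8 and 38.4 against 9.68 and 9.81. The linker histone gene Hist1h1b, made in S phase, stood at 525.8 and 535.3 CPM against 58.5 and 54.7, and thymidine kinase Tk1 at 46.3 and 58.4 against 5.95 and 5.08. Ccnd1, the cyclin that carries cells through G1, stood at 90.1 and 129.6 CPM against 7.35 and 8.39. Tyms and Mcm2, like Tk1 and Ccnd1, were under 10 CPM in other germ cells of at least 1 library. They passed the filter through the Dppa5a/Rhox-high cells. In single cells the summed S phase list was above the median of other germ cells in 94.2% of KO and 98.0% of WT cells. The list of G2 and mitosis showed no such shift, since 49.1% and 47.8% of cells were above that median. Of its 20 tested genes, Cenpa and Ube2c were past 2-fold, and Mki67 was at 133 and 115 CPM against 148 and 147.

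Several genes of later prophase were lower. On the axis and synaptonemal complex list all 11 genes were tested, of which Syce3, Sycp2 and 4930447C04Rik were at least 2-fold lower in both libraries and Rec8 higher. Syce3, of the central element, stood at 333 CPM in KO and 274 in WT against 1349 and 1325, and Sycp2, of the lateral element, at 188 and 141 against 426 and 432. Hormad1, Syce1, Syce2 and Tex12 were under 2-fold in either direction. Hence 2.42% of KO and 0.673% of WT cells had a summed axis list above the median of other germ cells. Of 23 break and recombination genes, 7 were at least 2-fold lower and Mei4 higher. Of these 7, 2 were under 10 CPM in the Dppa5a/Rhox-high cells of at least 1 library, Msh4 among them. They passed the filter through their level in other germ cells. Spo11 stood at 13.6 and 16.3 CPM against 81.7 and 102.7 (−2.58 and −2.66), Prdm9, which marks break sites, at 115 and 80.2 against 232 and 192, and Msh4, of the crossover pathway, at 10.4 and 9.72 against 24.98 and 28.1.

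**Figure D2:**
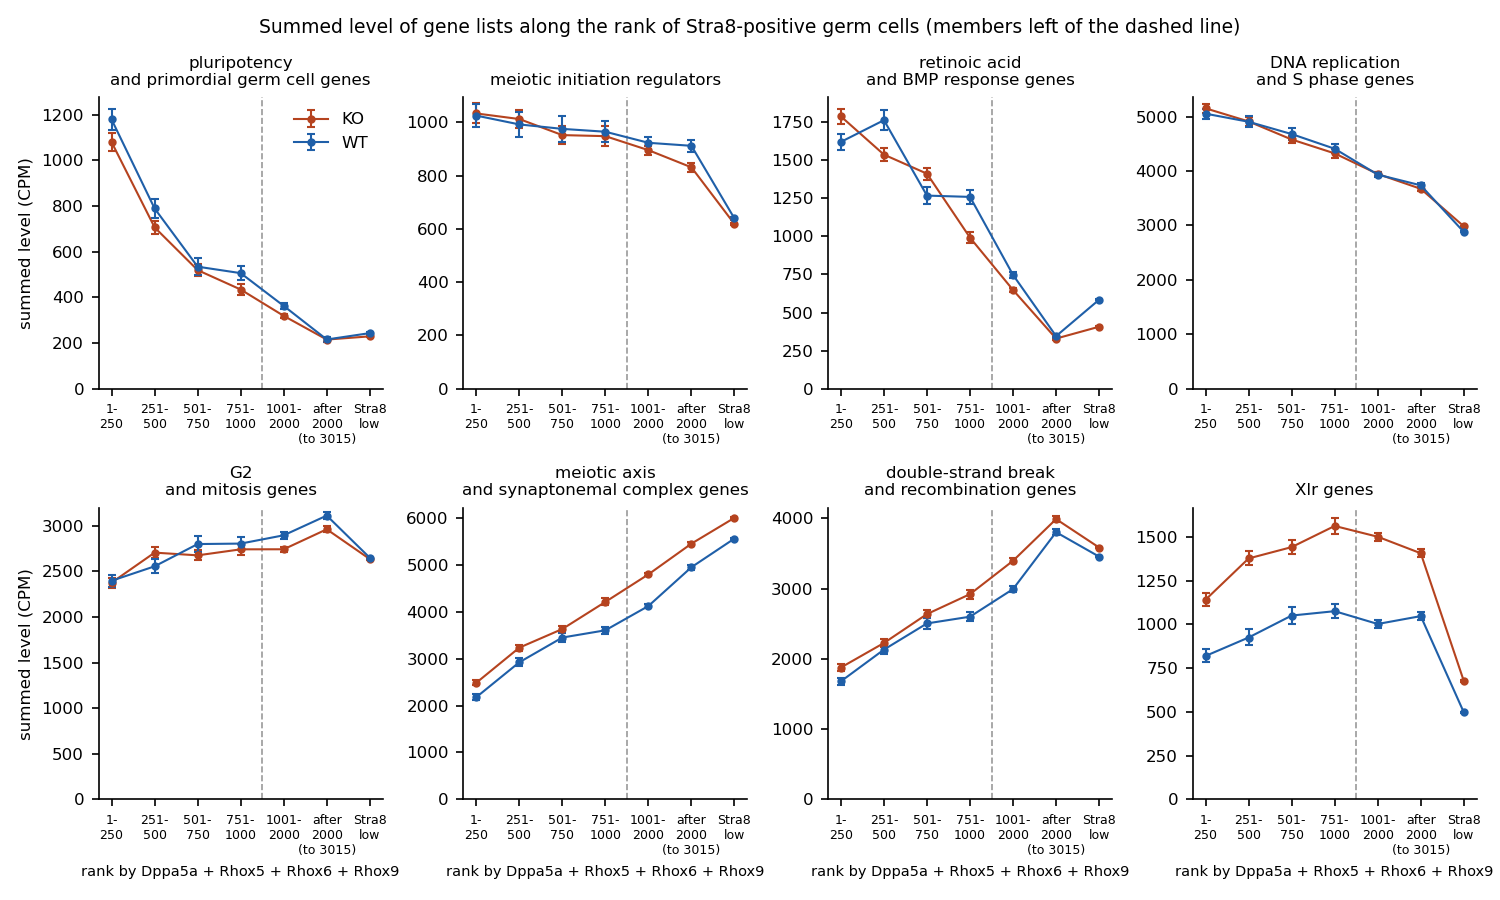
Summed CPM of 8 gene lists (vertical) along the rank by Dppa5a and Rhox sum (horizontal), in bands of the 1000 Dppa5a/Rhox-high cells, of the Stra8-positive cells ranked after them, and of germ cells with Stra8 below 5, for KO and WT with 95% counting intervals. The pluripotency list falls from 1080 CPM in KO and 1179 in WT in the first 250 cells, while the axis list climbs from 2483 and 2176 to 5998 and 5557 in germ cells with Stra8 below 5.

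The same gradient ran through the Dppa5a/Rhox-high cells themselves. Between the first and the last band of 250 ranks, the summed pluripotency list went from 1080 to 434 CPM in KO and from 1179 to 506 in WT. Over the same bands the axis list went from 2483 to 4207 and from 2176 to 3602 CPM. Dppa3 went from 203 to 42.4 CPM in KO and from 252 to 57.5 in WT, and Spo11 from 8.47 to 19.96 and from 10.1 to 26.0. The summed S phase list moved less, from 5152 to 4324 CPM in KO and from 5054 to 4410 in WT. Across the cells of a library the rank correlation of the score with the axis list was −0.52 in KO and −0.60 in WT, and with the pluripotency list 0.48 and 0.59. The points share their library, and a sum over few UMIs in a shallow cell is noisy.

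**Figure D3:**
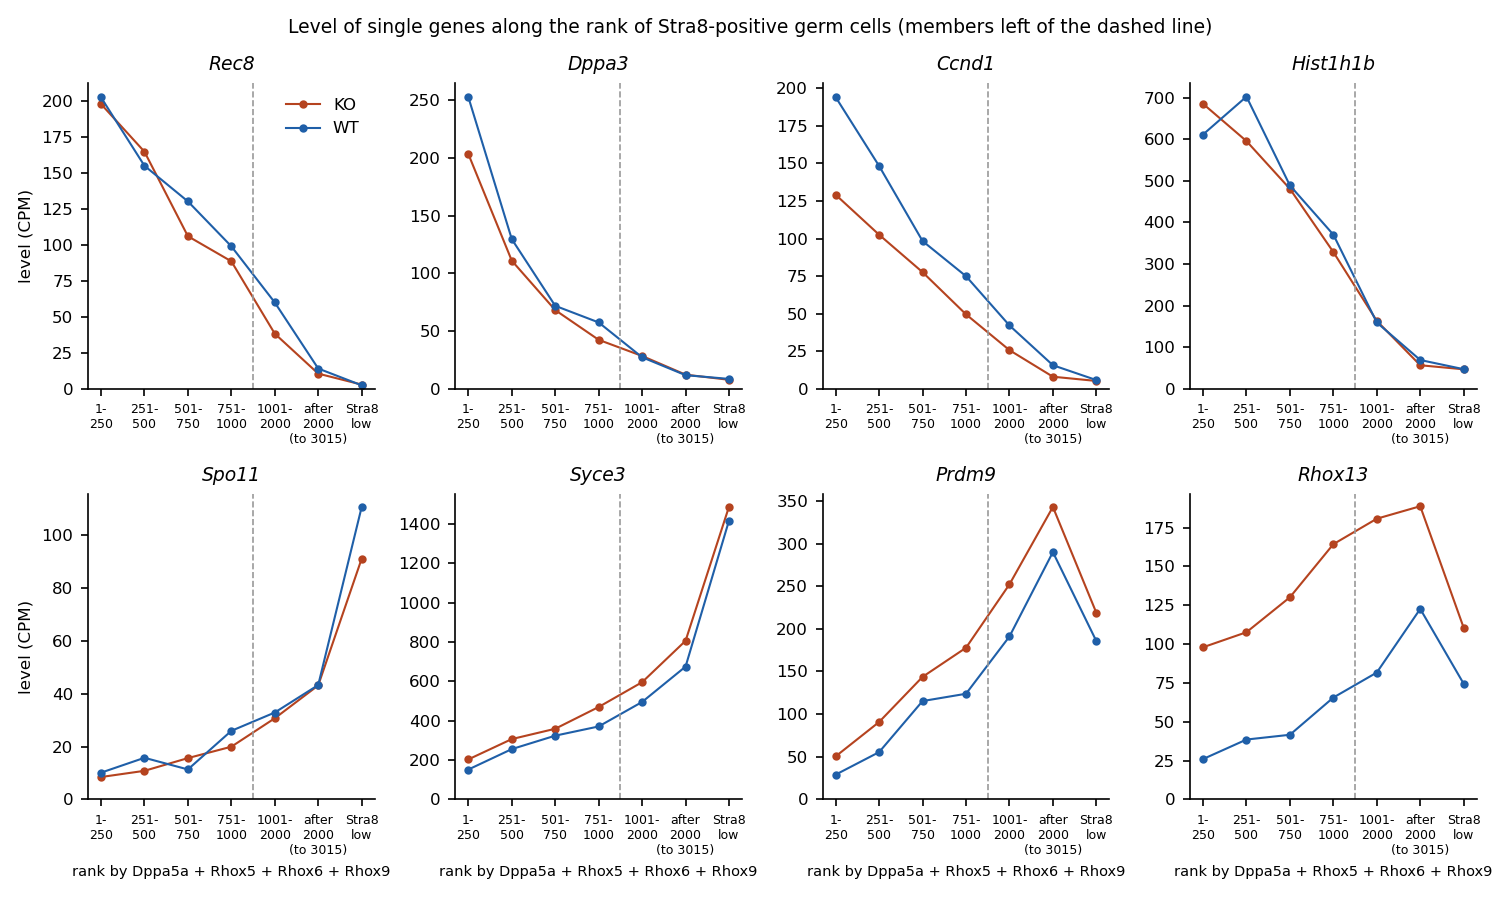
CPM of 8 single genes (vertical) along the same rank bands (horizontal), for KO and WT. Rec8, Dppa3, Ccnd1 and Hist1h1b stand higher in the first 250 ranks than in the fourth band, Spo11, Syce3 and Prdm9 stand lower, and Rhox13 lies higher in KO in every band.

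The germ cells with the Dppa5a and Rhox sum but with Stra8 below 5 (64 KO and 26 WT) give a view of what the Stra8 limit left out. They held more Dppa3, at 242 CPM in KO and 214 in WT, and less Rec8, at 75.5 and 69.9, than the Dppa5a/Rhox-high cells with 105.7 and 131.9 and with 139.7 and 147.3. Phlda2 was higher in them too, at 138 and 190 CPM against 47.1 and 75.1, as were Sct, Sox2, Sh3bgr and Dmrt1 in both libraries. Ccnd1, Msx1, Alpl, Tk1, Slc22a18 and Dera were lower in them in both libraries. Hist1h1b was at 53.5 and 79.6 CPM in them, near the level of other germ cells and far under that of the Dppa5a/Rhox-high cells. The levels of these 64 and 26 cells rest on 954183 and 514953 UMIs, and some gaps were small. In KO, Sox2 (27.2 CPM), Dmrt1 (22.0) and Alpl (27.2) lay inside the counting intervals of the Dppa5a/Rhox-high cells. Those intervals were 21.7 to 27.3, 18.2 to 23.3 and 25.6 to 31.6 CPM.

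Against the other 1427 KO and 588 WT Stra8-positive germ cells, which share the Stra8 limit, fewer genes were past 2-fold. Of 6871 genes tested, 214 were at least 2-fold higher in both libraries (3.11%) and 33 at least 2-fold lower (0.48%). Against both comparators 154 genes were higher and 27 were lower. The median log2 ratio of the pluripotency list stayed at 1.39 in KO and 1.46 in WT, and that of the meiotic entry list was 0.88 and 0.91, down from 1.54 and 1.63 against all other germ cells. Other lists stood farther apart than against all other germ cells. The median of the axis list was −0.51 and −0.50 in place of −0.33 and −0.29, and that of the 4 tested DNA methylation genes 0.71 and 0.73 in place of 0.32 and 0.26. Rec8 was still higher, by 2.46 and 1.98 on the log2 scale, and Phlda2 by 4.43 and 4.14.

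Phlda2, an imprinted growth regulator, had the largest ratio of the named genes. It stood at 47.1 CPM in KO and 75.1 in WT against 1.89 and 1.79 in other germ cells, log2 ratios of 4.64 (4.42 to 4.86) and 5.39 (5.17 to 5.62). Phlda2 was not particular to these cells, since germ cells with the sum but Stra8 below 5 had 138 and 190 CPM. Its neighbour Slc22a18, also imprinted, stood at 23.7 and 30.0 CPM against 3.29 and 3.65. In GRCm38 these genes lie on chromosome 7 from 143501545 to 143503150 and from 143473736 to 143499334. The next tested gene on one side, Cdkn1c (chromosome 7, 143458339 to 143461050), was not raised, at 188 and 136 CPM against 229 and 185. Nap1l4 and Cars on the other side were also under 2-fold, at log2 ratios of 0.32 and 0.27 and of 0.42 and 0.60. Sh3bgr, Sct, which encodes the hormone secretin, and Dera completed the higher genes. Like Phlda2 and Slc22a18, they were under 10 CPM in other germ cells of at least 1 library. These genes passed the filter through their level in the Dppa5a/Rhox-high cells. Sct stood at 108.6 and 116.3 CPM against 10.0 and 7.82, Sh3bgr at 42.7 and 41.0 against 2.33 and 1.99, and Dera at 19.3 and 18.4 against 2.73 and 2.42.

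The genes most lowered against other germ cells were of mixed kinds. Besides Spo11 they were Reg2, Gc, which encodes the vitamin D binding protein, Fgf9, Dnaaf1, an assembly factor of cilia, Morn5, Ssmem1, Sdcbp2, Lrrc46, Pcdh17, Krt10, Hbb-y and the antisense transcripts Taco1os and Med9os. All but Spo11 were under 10 CPM in the Dppa5a/Rhox-high cells of at least 1 library. They passed the filter through their level in other germ cells. Gc stood at 10.2 CPM in KO and 5.81 in WT against 86.0 and 88.7, and Fgf9, a growth factor, at 2.65 and 1.39 against 18.4 and 22.8. Reg2 stood at 2.49 and 3.28 CPM against 36.5 and 35.7, and Dnaaf1 at 4.33 and 3.03 against 31.9 and 30.7. Hbb-y, an embryonic haemoglobin, stood at 3.13 and 0.884 CPM against 113 and 84.1 (−5.18 and −6.57). Without the barcodes of high haemoglobin described below its ratios were −0.48 and −1.34, so that it was no longer past 2-fold in KO. Taco1os and Med9os lie antisense to other genes, and counts of such pairs are uncertain where the use of strand is not given.

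X-linked genes as a whole leaned upward. Rhox5, Rhox6 and Rhox9, which helped to choose the cells, are X-linked, so the rule can itself favour cells rich in X-linked transcripts. Leaving these genes out of the counts does not undo that choice, and the lean is a description. Of 278 tested X-linked genes 38 were at least 2-fold higher in both libraries (13.7%), against 386 of 6859 other genes (5.63%), while the shares of lower genes were 4.68% and 4.72%. X-linked genes, without those of the rule, took 4.07% of UMIs in KO and 4.08% in WT, against 3.77% and 3.62% in other germ cells. Among the 38 were 4 of the 10 Xlr genes, relatives of the axis protein gene Sycp3, namely Xlr3a, Xlr3b, Xlr3c and Xlr5c. Of these, Xlr3a and Xlr5c were under 10 CPM in other germ cells of at least 1 library and passed the filter through the Dppa5a/Rhox-high cells. Xlr3c stood at 87.5 CPM in KO and 67.7 in WT against 24.6 and 14.2, and Xlr3a at 44.5 and 27.6 against 9.48 and 7.42. The Xlr genes match each other closely in sequence, as do the Rhox2 and Rhox7 copies, and reads could be split among them. Outside the rule, 5 of 31 Rhox genes were tested. Rhox2a was past 2-fold (103 and 83.3 CPM against 49.9 and 38.5), Rhox1 was not (199 and 161 against 118 and 90.4), and Rhox13 did not follow its neighbours, at 124 and 43.5 against 123 and 77.5.

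Among genes of other functions, Dnmt1, which maintains DNA methylation, stood at 194 CPM in KO and 207 in WT against 66.0 and 61.6 and was the only one of 4 tested DNA methylation genes past 2-fold. Of 12 tested germ line identity and piRNA genes, Tex19.1 was higher (130 and 111 CPM against 45.6 and 49.5) and the rest were under 2-fold. Of 5 tested oocyte genes, Sohlh2 was higher (55.7 and 53.6 against 22.7 and 24.8), while Figla, a driver of the oocyte programme, was at 139 and 135 CPM against 191 and 186. Of the GR list, Nr3c1, Fkbp5 and Tsc22d3 were tested and none was past 2-fold against other germ cells.

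Markers of other cells of the ovary were low. Summed over 8 granulosa markers the level was 61.7 CPM in KO and 28.5 in WT, against 129 and 79.8 in other germ cells and 1849 and 1832 in barcodes that were not germ cells. The 8 stromal markers summed to 41.7 and 32.2 CPM against 121 and 70.8 in other germ cells, and 6 surface epithelium markers to 28.2 and 27.6 against 51.5 and 30.8. The 5 endothelial markers stood at 15.7 and 17.0 CPM against 14.5 and 6.78, the 4 perivascular markers at 5.61 and 4.80 against 4.52 and 4.78, and the 6 immune markers at 0.561 and 0.631 against 7.06 and 2.68, with 3 of the 6 at 0 in KO and 4 in WT. Of these lists 1 granulosa, 1 stromal and 1 surface epithelium marker passed the filter and none was past 2-fold in both libraries. Erythroid markers, most of them haemoglobin genes, summed to 1072 CPM in KO and 27.8 in WT. The KO level came from 2 cells that held 12544 of the 13373 haemoglobin UMIs of the 703 KO cells. Leaving out barcodes with at least 1% haemoglobin, an alternative chosen after seeing the data, kept 998 of the 1000 cells and left 421 genes higher and 337 lower.

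Between KO and WT, few genes of the Dppa5a/Rhox-high cells were past 2-fold. Of 7162 genes tested, 17 were at least 2-fold higher in KO (0.237%) and 6 at least 2-fold lower (0.0838%). These counts moved with the processing, to 82 higher and 77 lower when each cell was thinned to 3000 UMIs and to 11 higher and 5 lower without doublet calls. In other germ cells, 8 of 7260 were higher (0.11%) and 7 lower (0.0964%). The median log2 ratio of KO over WT was 0.01 in the Dppa5a/Rhox-high cells, and the middle 95% of genes lay between −0.43 and 0.46.

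Nr3c1 checked the labels. It stood at 12.7 CPM in KO and 81.3 in WT, a log2 ratio of −2.68 (−2.94 to −2.43), against −2.64 in other germ cells. A UMI was found in 20.2% of KO and 83.2% of WT cells, or in 3.98% and 21.5% after thinning. In WT, then, these cells expressed the receptor at about the level of other germ cells (71.0 CPM). The GR-responsive genes Fkbp5 and Tsc22d3 were under 2-fold and not lower in KO, at 22.9 CPM against 19.2 in WT, a log2 ratio of 0.26 (−0.03 to 0.55), and at 124 against 97.2, a log2 ratio of 0.35 (0.22 to 0.48).

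The groups of genes that set these cells apart did not differ by genotype past 2-fold. The median log2 ratio of KO over WT was −0.07 over 14 tested pluripotency genes, −0.03 over 10 meiotic entry genes, −0.02 over 9 retinoic acid and BMP genes and −0.04 over 32 S phase genes, with 0 genes past 2-fold in any of these lists. It was 0.17 over 11 axis genes, with single genes from −0.08 to 0.42, and 0.11 over 23 recombination genes, again with 0 past 2-fold. In other germ cells the medians of these axis and recombination genes were 0.14 and 0.02. Dmc1 (118 CPM in KO and 75.2 in WT, log2 0.64, 0.51 to 0.78) and Prdm9 (115 and 80.2, log2 0.52, 0.39 to 0.66) were on the higher side in KO, and Utf1 (20.4 and 34.3, log2 −0.75, −1.01 to −0.50) and Ifitm3 (72.9 and 111, log2 −0.61, −0.75 to −0.48) on the lower side. Rec8 was at 139.7 and 147.3 CPM, a log2 ratio of −0.08 (−0.18 to 0.03).

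Rhox13 was the X-linked Rhox gene that differed most. It stood at 124 CPM in KO and 43.5 in WT, a log2 ratio of 1.51 (1.34 to 1.68), against 0.67 (0.64 to 0.71) in other germ cells, so that the ratio was larger by 0.84 (0.67 to 1.01) in the Dppa5a/Rhox-high cells. A UMI was found in 79.1% of KO and 42.8% of WT cells, and the 5 highest KO cells held 3.16% of the UMIs. The 7 tested Rhox genes had log2 ratios from 0.31 to 1.51, with a median of 0.67. The 10 Xlr genes lay between 0.03 and 0.84, with a median of 0.49. Over all tested genes the median was 0.01. The Xlr genes, and some Rhox genes, match each other closely in sequence and are not separate readings. In other germ cells the medians of the same families were 0.38 and 0.56. The Rhox genes of the rule were not higher in KO, since Rhox5, Rhox6 and Rhox9 stood at −0.03, −0.37 and −0.19, although the shared threshold on their sum with Dppa5a binds these values.

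**Figure D4:**
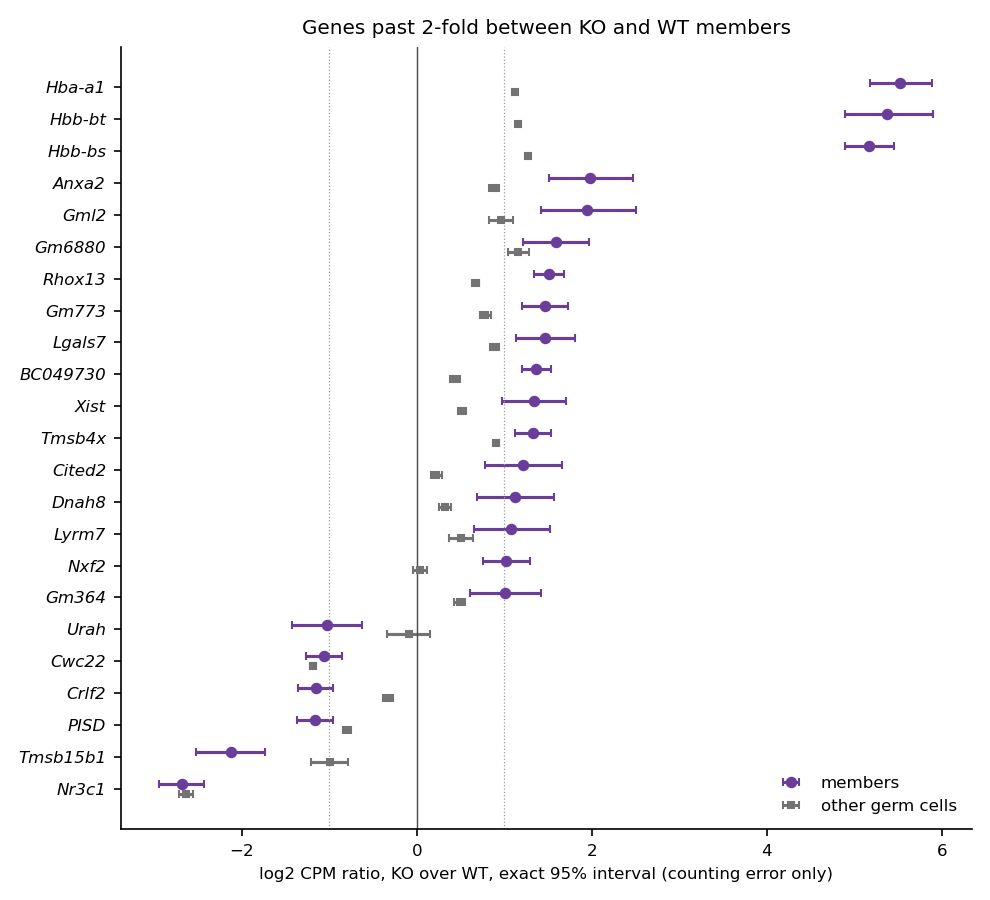
Log2 ratio of KO over WT in Dppa5a/Rhox-high cells and in other germ cells for the 23 genes past 2-fold in the former, with 95% counting intervals. Nr3c1 and Cwc22 have nearly equal ratios in both, while Rhox13, BC049730 and the haemoglobin genes stand farther from 0 in the Dppa5a/Rhox-high cells.

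The other genes past 2-fold are given in 3 groups. The haemoglobin genes Hba-a1, Hbb-bs and Hbb-bt, with log2 ratios of 5.52, 5.16 and 5.38, rested on the 2 KO cells named above and stood at 1.28, 1.26 and 1.09 without barcodes of high haemoglobin. Anxa2 (21.8 CPM in KO and 5.55 in WT), Lgals7 (31.6 and 11.5) and Tmsb4x (78.6 and 31.4) had a UMI in similar shares of cells in both libraries, 12.8% and 12.5%, 20.3% and 24.2%, and 46.8% and 46.8%. The 5 highest KO cells held 36.8%, 34.3% and 22.5% of their UMIs, and without doublet calls Anxa2 and Lgals7 stood at log2 ratios of 0.43 and 0.13. Granulosa markers were also higher in KO, at 61.7 CPM against 28.5 in WT, and the part of such cells in these ratios was not tested.

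Of the remaining genes, BC049730, Gml2 and Tmsb15b1 were captured in unlike shares of cells, and Xist in similar shares. These shares were not thinned, and the libraries differ in depth. A UMI was found in 74.5% of KO and 54.2% of WT cells for BC049730, in 20.6% and 9.09% for Gml2, in 8.96% and 44.8% for Tmsb15b1, and in 9.67% and 10.1% for Xist. BC049730 stood at 117 CPM in KO and 45.6 in WT, a log2 ratio of 1.37 (1.199 to 1.54), against 0.44 in other germ cells, and Gml2 at 17.0 and 4.42 (1.94, 1.42 to 2.503). Nxf2, an X-linked mRNA export gene, was at 40.2 and 19.8 CPM, a log2 ratio of 1.02 (0.76 to 1.29) against 0.03. Crlf2, a cytokine receptor, was lower in KO at 28.9 against 64.4 CPM, a log2 ratio of −1.16 (−1.36 to −0.96) against −0.33. Cwc22, a splicing factor, was at 28.9 and 60.2 CPM (−1.06, −1.26 to −0.86), and other germ cells had a ratio of −1.18. Tmsb15b1 was at 6.09 and 26.5 CPM (−2.12, −2.52 to −1.74), PISD at 25.9 and 57.9 (−1.16) and Urah at 7.62 and 15.53 (−1.03). BC049730, Cwc22 and Tmsb15b1 have near-identical copies in the genome, and their counts are uncertain. The higher genes not named so far were Cited2, Dnah8, Gm364, Gm6880, Gm773, Lyrm7 and Xist, with log2 ratios from 1.00 (Gm364) to 1.59 (Gm6880). Of the UMIs of Xist, 27.7% in KO and 65.0% in WT lay in the 5 highest cells.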

How the data were processed

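Droplet single-cell RNA sequencing (10x, counting transcript 3′ ends) of 1 KO and 1 WT library was analysed. UMI counts per gene and barcode were deposited by the authors as whole numbers without normalization, made with Cell Ranger (3.0.2 per the file headers) on mm10. The settings of cell calling, strand and multi-mapped reads were not given in the sources used here. Of 27998 gene identifiers, 27645 (98.7%) matched the annotation of GRCm38. Barcodes were filtered as stated in the report, which kept 15883 of 17829 KO and 9512 of 11430 WT barcodes. The study's sort gates removed doublets, and no caller was applied except as an alternative (Scrublet in scanpy 1.11.5, expected rate 8%).

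UMIs were summed per library and expressed as CPM (Python 3.11.15, numpy 2.4.6, scipy 1.17.1). Ratios carry exact conditional binomial intervals, levels exact Poisson intervals and shares Clopper-Pearson intervals, all at 95%. Where 1 side had 0 UMIs, a floor of 3 UMIs was used. The step was tested on simulated data. Named genes were the 14 higher and 14 lower genes with the largest smaller ratio of both libraries, the 8 higher and 8 lower of KO against WT, and the lists. The genes Nap1l4, Cars and Cdkn1c, and those given to complete the counts of KO against WT, were added after their values were seen. The members and lists were chosen with earlier results of these data known. Near-identical copies were found with blastn 2.17.0 at 95% identity.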

Additional observations from a re-analysis of the deposited data

Results flagged for a closer look

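For 2 genes the Dppa5a/Rhox-high cells stood on opposite sides of other germ cells in the libraries, and the difference was not tested, as each group holds 1 library. Crlf2, a cytokine receptor, was lower than in other germ cells in KO, with a log2 ratio of −0.38, and higher in WT, at 0.45. Zfp42, a zinc finger gene of pluripotent cells, was higher in KO, at 0.29, and lower in WT, at −0.23.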

How the results depend on the processing

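No paired analysis was possible because each group holds 1 library. No library could be left out for the same reason. Alternatives on haemoglobin and on shared barcodes were chosen after seeing the data. With every cell thinned to 3000 UMIs, 82 genes were higher and 77 lower in KO. With 500 cells the shares were 3.11% in KO and 2.04% in WT and 10 genes were lower in KO. With 2000 cells they were 12.7% and 7.78%, 9 genes were higher in KO, and Hba-a1, Hbb-bt and Hbb-bs turned to −0.81, −0.60 and −0.60. Dppa5a alone gave a WT share of 3.53%. Without doublet calls the KO share was 6.92% and 11 genes were higher in KO. With totals without mitochondrial, ribosomal protein and haemoglobin genes, 12 genes were lower in KO. A filter at 5 CPM gave 517 genes lower against other germ cells, and 29 higher and 16 lower in KO. At 25 CPM there were 241 higher and 150 lower, and 8 higher in KO. Against other Stra8-positive cells there were 214 higher and 33 lower. When 1 random part of the UMIs chose the cells, the other part gave 28 genes higher and 10 lower in KO. The cause of these moves was not tested. Under the alternatives Rhox13 stayed between 1.21 and 1.81 and Nr3c1 between −2.71 and −2.43. Choosing on thinned counts kept 670 of the 1000 cells, and on Dppa5a alone 712. Depth limits what can be said of genes under 10 CPM.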
